A study of Felis catus with 12 samples.

Results

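Matrix proteases, their inhibitors and a matrix crosslinking enzyme were followed in left ventricular tissue of 12 cats. The set holds 10 of the 30785 genes listed, taken by symbol: the matrix metalloproteinases MMP2 and MMP14, the metalloproteinase ADAMTS1, the serine proteases HTRA1 and HTRA3, the tissue inhibitors TIMP1, TIMP2, TIMP3 and TIMP4, and LOX. They were listed for their function, and HTRA3 and MMP2 were also chosen by their deposited values, which fell as myocardial fibrosis rose in these same cats. The RNA came from hearts taken post mortem and was sequenced by Oxford Nanopore as RNA, without a cDNA step, in a single library for each cat. The labels name no treatment, genetic change or strain and give the tissue as a left ventricular biopsy.

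The labels group the libraries by flow cell only. Flow cell A carried cats 11, 23, 30 and 31, flow cell B carried cats 10, 15, 35 and 36, and flow cell C carried cats 22, 29, 37 and 38. Outcome, age and fibrosis were joined by cat number from the cohort description of the study. Congestive heart failure (HF) was the outcome of cats 11, 15, 30, 31, 35 and 37, and arterial thromboembolism (ATE), in which a clot lodges in an artery, that of cats 10, 23 and 38. Cat 36 had no known cardiac death. The libraries numbered 22 and 29 are not among the cats that the study lists as sequenced, so they entered only the comparison of flow cells and the descriptions over 12 libraries. In turn, some cats that the study lists as sequenced have no library here, so the numbering does not fully match. Cats differed in sex and age within each outcome, and neither was recorded for cat 35. Breed differed too, as cat 11 was a Birman and cats 15 and 35 were Maine Coons, all with congestive HF. The other cats of known outcome were domestic short hairs, so breed and outcome are partly confounded. Bulk tissue cannot tell fewer cells of a type from less RNA per cell.

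The interstitial matrix of the heart is built by fibroblasts and held in balance by enzymes that cut it and by proteins that block those enzymes. Metalloproteinases carry a catalytic zinc ion and are made as inactive precursors. The membrane-bound MMP14 activates the precursor of MMP2, and TIMP2 takes part in that step. TIMPs bind the active site of metalloproteinases, and TIMP3 stays attached to the matrix and also blocks ADAM and ADAMTS enzymes. HTRA1 and HTRA3 are secreted serine proteases, ADAMTS1 cleaves the proteoglycan versican, and LOX makes the crosslinks that stiffen collagen and elastin. The abundance of an RNA says nothing about how much of its precursor protein is activated.

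A library held 789257 to 2263110 reads on genes, with a median of 1221712. Values below are reads divided by the size factor of the library, called normalised reads, and a single read was worth 0.483 to 1.43 of them. Testing was limited to the 8715 genes that reached 10 reads in 3 or more of the 10 libraries with a known outcome, among them 8 of the 10 members. TIMP4 and LOX were below this limit. All 11 cardiomyocyte markers in use had reads, and their summed value was 117368 to 256437 per library, as heart muscle would give. The fibroblast markers summed to 1722 to 4895. The leukocyte markers summed to 124 to 634 in 11 libraries and to 1746 in that of cat 35, while LYZ among them was at 0 in all 12.

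MMP2, the gelatinase that degrades denatured collagen and type IV collagen, was read in every library. On flow cell A it had 43.9 normalised reads in cat 11, 55.1 in cat 23, 100.2 in cat 30 and 70.2 in cat 31. On flow cell B it had 77.8 in cat 10, 28.6 in cat 15, 140.2 in cat 35 and 74.8 in cat 36, and on flow cell C 87.8 in cat 22, 44.3 in cat 29, 60.1 in cat 37 and 86.8 in cat 38. The lowest and the highest cat were thus on the same flow cell and had the same outcome, congestive HF. The coefficient of variation over the 12 libraries was 41.2%, against 11.7% that counting error alone would give.

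MMP14, the membrane-bound activator of MMP2, had few reads, between 3 and 30 per library. Its normalised reads were 10.1 in cat 11, 16.1 in cat 23, 16.8 in cat 30 and 18.3 in cat 31 on flow cell A. They were 7.89 in cat 10, 4.08 in cat 15, 23.6 in cat 35 and 4.45 in cat 36 on flow cell B, and 5.40, 7.76, 5.72 and 2.94 in cats 22, 29, 37 and 38 on flow cell C. Outside flow cell A, cat 35 was the only library above 8 normalised reads. Cat 35 was also highest for MMP2, TIMP2 and HTRA3, and its leukocyte marker sum was the highest of the 12; the part of leukocytes in these values was not tested.

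ADAMTS1, the versican-cleaving protease, had 218 normalised reads in cat 11, 150.4 in cat 23, 117 in cat 30 and 196 in cat 31 on flow cell A. On flow cell B it had 71.0 in cat 10, 31.3 in cat 15, 45.7 in cat 35 and 88.1 in cat 36, and on flow cell C 113 in cat 22, 68.7 in cat 29, 51.5 in cat 37 and 73.5 in cat 38. Every library of flow cell A lay above every other library. Within flow cell A, the cat with ATE lay between those with congestive HF.

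HTRA1, a secreted serine protease that also acts on proteoglycans and fibronectin, ranged from 15.5 normalised reads in cat 29 to 107 in cat 23, with a median of 54.5. HTRA3, its relative, was at 45.9 in cat 11, 8.06 in cat 23, 33.7 in cat 30 and 16.7 in cat 31 on flow cell A. It was at 27.1, 10.9, 67.7 and 50.8 in cats 10, 15, 35 and 36 on flow cell B, and at 18.9, 18.8, 2.86 and 39.7 in cats 22, 29, 37 and 38 on flow cell C. Cat 37 thus had 2 reads of HTRA3 in all and 70 of HTRA1. With a coefficient of variation of 68.7% against 17.5% from counting, HTRA3 had the widest spread of the 5 proteases relative to its mean, and MMP14 followed with 65.8% against 30.6%.

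TIMP1, the inducible inhibitor of most metalloproteinases, stood apart in 3 cats. It had 806 normalised reads in cat 11, 211 in cat 23, 179 in cat 30 and 731 in cat 31 on flow cell A. It had 108, 169, 364 and 170.1 in cats 10, 15, 35 and 36 on flow cell B, and 120.2, 171, 123 and 120.6 in cats 22, 29, 37 and 38 on flow cell C. Cats 11, 31 and 35, all with congestive HF, were the 3 highest, and the other 9 libraries lay between 108 and 211. The same 3 cats had the 3 highest leukocyte marker sums, 634, 586 and 1746, against 124 to 309.6 in the other 9; the part of leukocytes in TIMP1 was not tested.

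TIMP2, which takes part in the activation of MMP2, was steadier, from 159 normalised reads in cat 11 to 376 in cat 35 with a median of 211. TIMP3, the matrix-bound inhibitor, ranged from 184 in cat 31 to 461 in cat 30 with a median of 260.1. Their coefficients of variation were 30.5% and 28.0%, the smallest of the 10 genes, against 88.7% for TIMP1. Cat 11 was thus the highest library for TIMP1 and the lowest for TIMP2, and cat 31 was the second highest for TIMP1 and the lowest for TIMP3.

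TIMP4, the inhibitor known for its expression in the heart, had only 24 reads over the 12 libraries and 0 in 5 of them. The most in a library were 7 reads, in cat 30. LOX, the collagen crosslinking enzyme, had 30 reads in all and 0 in 4 libraries, with 7 reads in cat 23 at most. A count of 0 allows up to 3 reads, which are worth 1.45 to 4.29 normalised reads depending on the library, so differences of TIMP4 and LOX between most libraries were not detectable at this depth. In the annotation of another cat assembly, TIMP1, TIMP3 and TIMP4 lie within the synapsin genes SYN1, SYN3 and SYN2, which had 37, 3 and 66 reads in all. For TIMP4 the surrounding gene thus had more reads than the member, and the strand setting of the counting is not given in the sources used here, so its count is uncertain.

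**Figure D1:**
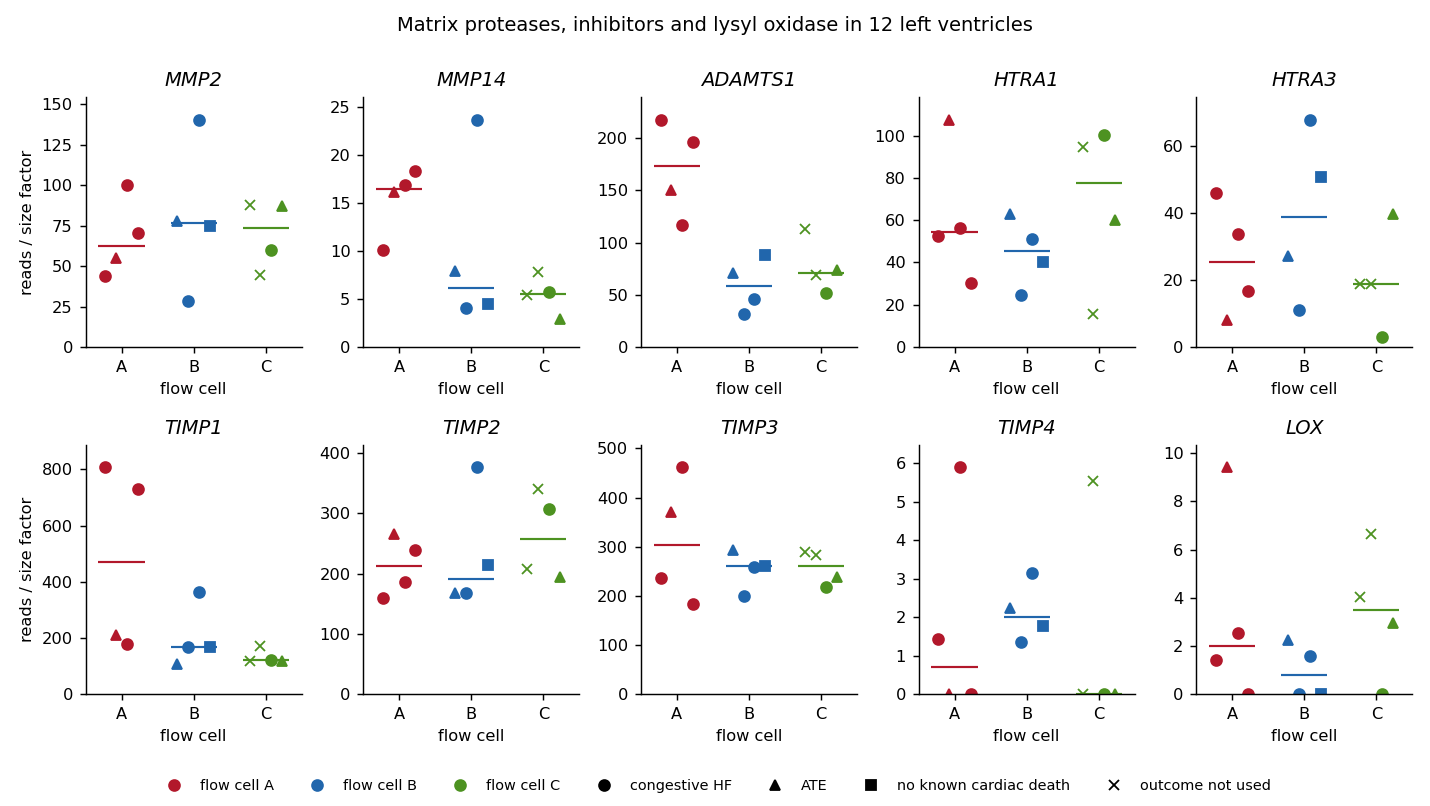
Normalised reads (reads divided by the size factor) of the 10 genes, with the vertical axis of each panel starting at 0, in the 12 libraries by flow cell (colour) and outcome (symbol); the line is the median of the 4 libraries. ADAMTS1 is at 117 to 218 on flow cell A and at 31.3 to 113 elsewhere, and TIMP1 is high in cats 11 and 31 on flow cell A and in cat 35 on flow cell B.

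The first comparison asked whether the genes differed with the flow cell, the only grouping that the labels give. Setting flow cell A against flow cells B and C was chosen from earlier results of these data. The p-values of this contrast are thus not independent support. ADAMTS1 rose on flow cell A by 1.37 on the log2(value + 1) scale (SE 0.29, 95% interval 0.75 to 1.99), a 2.58-fold difference with n = 4 and 8 libraries and an adjusted p of 0.0151 in limma. It was the only member of the 8 tested past the adjusted threshold of 0.05. Each flow cell carried different cats, so the p-value measures the spread between cats and not between flow cells. Over all tested genes 5.12% were called in either direction and 1.62% as higher on flow cell A, and in 1.72% the 4 libraries of flow cell A lay above the other 8, as they did for ADAMTS1. On reads without scaling the calls were 75 higher and 5 lower on flow cell A, and with edgeR 190 and 245, against 141 and 305 in limma. The call of ADAMTS1 was lost without cat 11 (adjusted p = 0.0909), without cat 31 (0.0592) and against flow cell C alone (0.0709), and the difference stayed between 1.16 and 1.58 in these and in the comparison with flow cell B alone.

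TIMP1 differed by 1.31 (SE 0.39, 95% interval 0.48 to 2.14) and MMP14 by 1.11 (SE 0.44, 95% interval 0.19 to 2.04) in the same direction, with adjusted p-values of 0.0636 and 0.147 in limma. TIMP1 overlapped between the groups, since cats 23 and 30 on flow cell A were below cat 35. edgeR on the whole reads gave TIMP1 an adjusted p of 0.0333 and DESeq2 one of 0.00682. MMP14 had 10 or more reads only in the 4 libraries of flow cell A and in cat 35, so it was tested mostly because of the group in which it is high, and its difference is a description.

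The other 5 tested genes lay between -0.18 and 0.21 and had adjusted p-values of 0.620 or more in limma. TIMP2 was at -0.18 (95% interval -0.69 to 0.34) and TIMP3 at 0.21 (-0.26 to 0.69). MMP2 was at -0.09 (-0.81 to 0.63), HTRA1 at 0.21 (-0.71 to 1.13) and HTRA3 at -0.01 (-1.32 to 1.30). Their intervals leave room for differences of either sign, widest for HTRA3. The median over all 10 members, TIMP4 and LOX included, was 0.21 and that of all tested genes 0.03.

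Flow cell A also differed in markers of some cell types. Of the tested markers, 0 of 10 endothelial, 0 of 9 leukocyte and 0 of 2 adipocyte ones were called in limma. Of all 8715 tested genes, 305 were called lower and 141 higher on flow cell A. Of the 11 cardiomyocyte markers, 5 fell on flow cell A at an adjusted p under 0.05 in limma and 0 rose, with TNNT2, TNNI3, TNNC1, MYL3 and MYBPC3 called. Their sum was 117368 to 191628 on flow cell A and 126025 to 256437 elsewhere. Of the 12 fibroblast markers, COL1A1 and COL3A1 rose, while the fibroblast sum overlapped widely, 1722 to 4895 against 1989 to 4176. Of the 8 tested mural and smooth muscle markers, TAGLN and CNN1 rose, with sums of 4251 to 8749.7 on flow cell A and 3398 to 9766 elsewhere. The part of these cell types in the difference of ADAMTS1 was not tested.

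Called genes of the wider protease and inhibitor families went in both directions between flow cells. By limma 5.12% of all tested genes were called in either direction, so these few calls are no result about the families. Of 17 tested metalloproteinases outside the set, 0 were called by limma, edgeR or DESeq2. At an unadjusted p under 0.05 limma had 4 of them higher and 1 lower, and 821 higher and 1042 lower of all 8715 tested genes. Of 16 serine and cysteine proteases 1 fell, CTSD, the lysosomal protease cathepsin D, by 1.30 (SE 0.30, adjusted p = 0.0206). Of 11 crosslinking enzymes 1 was called, LOXL2, and of the further inhibitors reported here SERPING1 fell.

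LOXL2, a relative of LOX with the same crosslinking activity, had at most 2.94 normalised reads on flow cells B and C and between 10.7 and 22.3 on flow cell A, a difference of 2.60 (SE 0.48). With 1 to 4 reads per library on flow cells B and C, it reached the limit for testing only through flow cell A, where it is high, so this difference is a description. SERPING1, the inhibitor of complement component C1, fell by 1.15 (SE 0.32, adjusted p = 0.0466 in limma), a call that held in 4 of the 12 fits that each left out a library. CTSD held its call in 10 of these fits, and both genes lost theirs without cat 11 or cat 31. Over all 22 alternatives CTSD held it in 17 and SERPING1 in 9, and both lost it on unscaled reads and against flow cell B or C alone, SERPING1 also with edgeR.

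**Figure D2:**
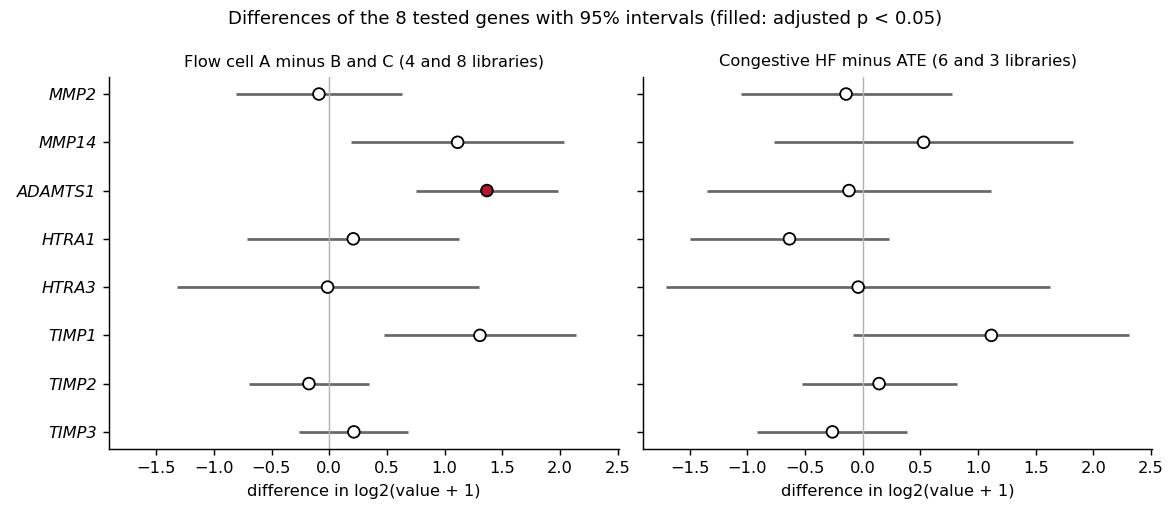
Differences in log2(value + 1) of the 8 tested genes with 95% intervals from limma, for flow cell A minus flow cells B and C (left) and congestive HF minus ATE (right); filled points have an adjusted p under 0.05. ADAMTS1 at 1.37 on the left is the only filled point, and on the right all 8 intervals include 0.

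The second comparison asked whether the genes differed between the cardiac outcomes, congestive HF in 6 cats and ATE in 3. None of the 8 tested members was called, with an adjusted p of 0.960 or more in limma, and of all tested genes 0 were called (0%), against 4.41% at an unadjusted p under 0.05, among them 0 members. edgeR called 0 and DESeq2 1 of the 8715 genes, neither time a member, and limma had 384 genes at an unadjusted p under 0.05.

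TIMP1 had the largest difference of the tested members. Its normalised reads with congestive HF were 123 at the lowest, 272 at the median and 806 at the highest, and 108, 211 and 120.6 in cats 10, 23 and 38 with ATE. The difference was 1.12 (SE 0.56, 95% interval -0.08 to 2.31, unadjusted p = 0.0651 in limma) and came to 0.88 with flow cell as a covariate. On the whole reads edgeR gave TIMP1 1.43 with an unadjusted p of 0.0316 and DESeq2 1.43 with one of 0.0120, and the adjusted p-values were 0.933 and 0.892. Within flow cell A, cats 11 and 31 with congestive HF lay above cat 23 with ATE and cat 30 lay below it. Within flow cell B, cats 15 and 35 lay above cat 10, and within flow cell C cat 37 (123) hardly differed from cat 38 (120.6).

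HTRA1 tended the other way, at 24.5, 51.9 and 100.1 (lowest, median and highest) with congestive HF and 63.1, 107 and 60.3 in cats 10, 23 and 38 with ATE. Its difference was -0.63 (SE 0.40, 95% interval -1.50 to 0.23) and was within the spread between cats. MMP14 was at 0.53 (-0.77 to 1.82) and TIMP3 at -0.26 (-0.91 to 0.39). MMP2 (-0.14), TIMP2 (0.14), ADAMTS1 (-0.12) and HTRA3 (-0.04) were close to 0, but the interval of HTRA3, -1.71 to 1.63, leaves room for a more than 3-fold difference in either direction. LOX had 8 reads in the 6 cats with congestive HF and 13 in the 3 cats with ATE, and TIMP4 15 and 2, and neither was tested.

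Among the wider families 0 genes were called between outcomes by limma, edgeR or DESeq2. The smallest unadjusted p-values belonged to PCOLCE2, an enhancer of procollagen processing, with a difference of -1.61 (SE 0.53) and to SERPINF1, a serpin that restrains vessel growth, with -1.11 (SE 0.40). In the other direction LOXL4, another lysyl oxidase, was at 2.03 (SE 0.76) and CSTB, a cystatin that blocks cysteine proteases, at 0.71 (SE 0.32). All 4 had an adjusted p of 0.960 in limma. Of the 16 genes listed as further inhibitors, 1 was higher and 3 were lower with congestive HF at an unadjusted p under 0.05 in limma. PCOLCE2, an enhancer, and SERPINF1 are among the lower ones, so this is not a count of protease inhibitors.

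The balance of inhibitor to protease reads was described per library, since the size factor cancels in it. TIMP1 had 18.4 reads per MMP2 read in cat 11, 10.4 in cat 31 and 5.90 in cat 15, which were the 3 highest and all with congestive HF. MMP2 was chosen for its fall with fibrosis, so ratios to MMP2 carry the values used in that choice. Cat 15 had 124 reads of TIMP1 and only 21 of MMP2. The lowest ratios were 1.37 in cat 22, 1.39 in cat 38 and 1.39 in cat 10. Over the 6 cats with congestive HF the ratio went from 1.79 (cat 30) to 18.4, with a median of 4.25, and over the 3 cats with ATE it was 1.39, 3.83 and 1.39. The outcomes overlapped, as cats 30, 35 and 37 with congestive HF, the last 2 at 2.60 and 2.05, lay below cat 23.

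Summed over the family, TIMP1 to TIMP4 had 6.11 (cat 35) to 22.3 (cat 11) reads per read of MMP2 and MMP14, a 3.64-fold range, against a 13.4-fold range for TIMP1 to MMP2. Cat 35 thus had the lowest summed ratio although its TIMP1 was the third highest of the normalised values, and its MMP2 and MMP14 were the highest. Reads are not molecules per length, so these ratios compare libraries and do not say which RNA was more abundant.

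**Figure D3:**
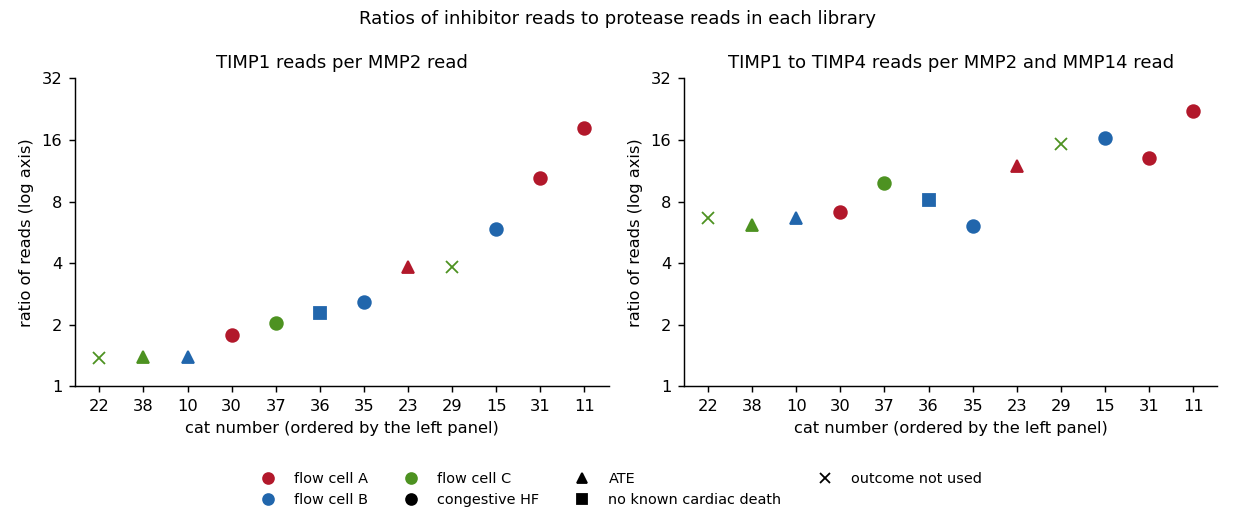
Reads of TIMP1 per read of MMP2 (left) and reads of TIMP1 to TIMP4 per read of MMP2 and MMP14 (right) in each library, on log axes, with cats in the order of the left panel, flow cell as colour and outcome as symbol. The left ratio runs from 1.37 in cat 22 to 18.4 in cat 11 and the right one from 6.11 in cat 35 to 22.3 in cat 11.

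The third comparison asked whether the genes moved with age in the 9 cats of known outcome with an age. From the youngest to the oldest they were cats 36, 31, 11, 38, 10, 37, 23, 15 and 30, so cats with congestive HF were among both the youngest and the oldest. None of the 8 tested members was called by the exact permutation test of Spearman's rho (two-sided, adjusted over all tested genes). Of the tested genes 0 were called (0%), with 4.76% at an unadjusted p under 0.05, and 0 of the members were among these. The smallest adjusted p of any tested gene in this exact test was 0.480. With so few cats the smallest possible p is limited, so the lack of calls does not show that genes are unrelated to age. limma's slope on age called 0 genes too, with 401 at an unadjusted p under 0.05.

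HTRA3 had the smallest unadjusted p, with a rho of -0.55 (exact permutation p = 0.133, adjusted p = 0.921). Cat 36, the youngest, had 50.8 normalised reads and cat 30, the oldest, 33.7, while the lowest values were those of cats 37, 23 and 15 (2.86, 8.06 and 10.9), ranked 6, 7 and 8. ADAMTS1 had a rho of -0.38, TIMP3 of 0.35, HTRA1 of 0.28 and TIMP1 of -0.18. With the ranks of value and age centred within flow cells, ADAMTS1 came to -0.92 (adjusted p = 0.668 by exact permutation within flow cells) and TIMP1 to -0.52 (0.774), while HTRA3 was at -0.56 (0.714). Permuting within flow cells leaves few orders, and the smallest adjusted p of any tested gene in that exact test was 0.6675. MMP2, MMP14 and TIMP2 were within 0.09 of 0 (-0.03, 0.07 and -0.08). Of the wider families PLAUR, the receptor of urokinase, had -0.77 and PLOD1, a lysyl hydroxylase of procollagen, -0.73, and MMP28 and PRSS23 had 0.57 and 0.53 in the other direction, all with an adjusted p of 0.851 or more by the exact permutation test. In the same cats the leukocyte marker sum and the mural and smooth muscle sum each had a rho of -0.67 with age, the endothelial sum 0.73 and the cardiomyocyte sum -0.53, and their part in these values was not tested.

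Myocardial fibrosis, the share of fibrous tissue in the stained muscle area, chose HTRA3 and MMP2, so the values along it are a description and no test was made. The 8 cats with a measurement were, from the least to the most fibrosis, cats 35, 30, 38, 36, 10, 11, 15 and 23. MMP2 had 140.2, 100.2, 86.8, 74.8, 77.8, 43.9, 28.6 and 55.1 normalised reads in this order, which gives a rho of -0.90. The 5 cats with the least fibrosis all had more MMP2 than the 3 with the most. MMP2 was chosen for this fall, so the split adds no support to it. HTRA3 had 67.7, 33.7, 39.7, 50.8, 27.1, 45.9, 10.9 and 8.06 in this order, which gives a rho of -0.71. Its lowest values were those of cats 15 and 23, the 2 with the most fibrosis.

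The other 8 genes were lower in absolute rho over the 8 cats. TIMP4 had a rho of -0.66, on 7 reads at most, TIMP2 of -0.38, MMP14 of -0.31 and TIMP3 of -0.19. LOX (-0.04) and TIMP1 (-0.02) were near 0, and HTRA1 (0.17) and ADAMTS1 (0.24) were positive. The median of the 10 genes was -0.25, against 0.00 for all tested genes. It includes MMP2 and HTRA3, which were chosen for their fall, so part of this shift is built in. This order changed when the ranks were centred within flow cells, which leaves 7 cats, since cat 38 was the only cat of flow cell C with a measurement. TIMP4 then had -0.94, MMP2 -0.86, HTRA3 -0.81 and MMP14 -0.72, and TIMP1 and TIMP3 had -0.35. Leaving out each cat in turn moved the median of the 10 genes between -0.565 and 0.04. In the same 8 cats the leukocyte marker sum had a rho of -0.60 and the fibroblast sum one of 0.12, with the other marker sums between -0.095 and 0.071, and their part in the values of MMP2 and HTRA3 was not tested.

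**Figure D4:**
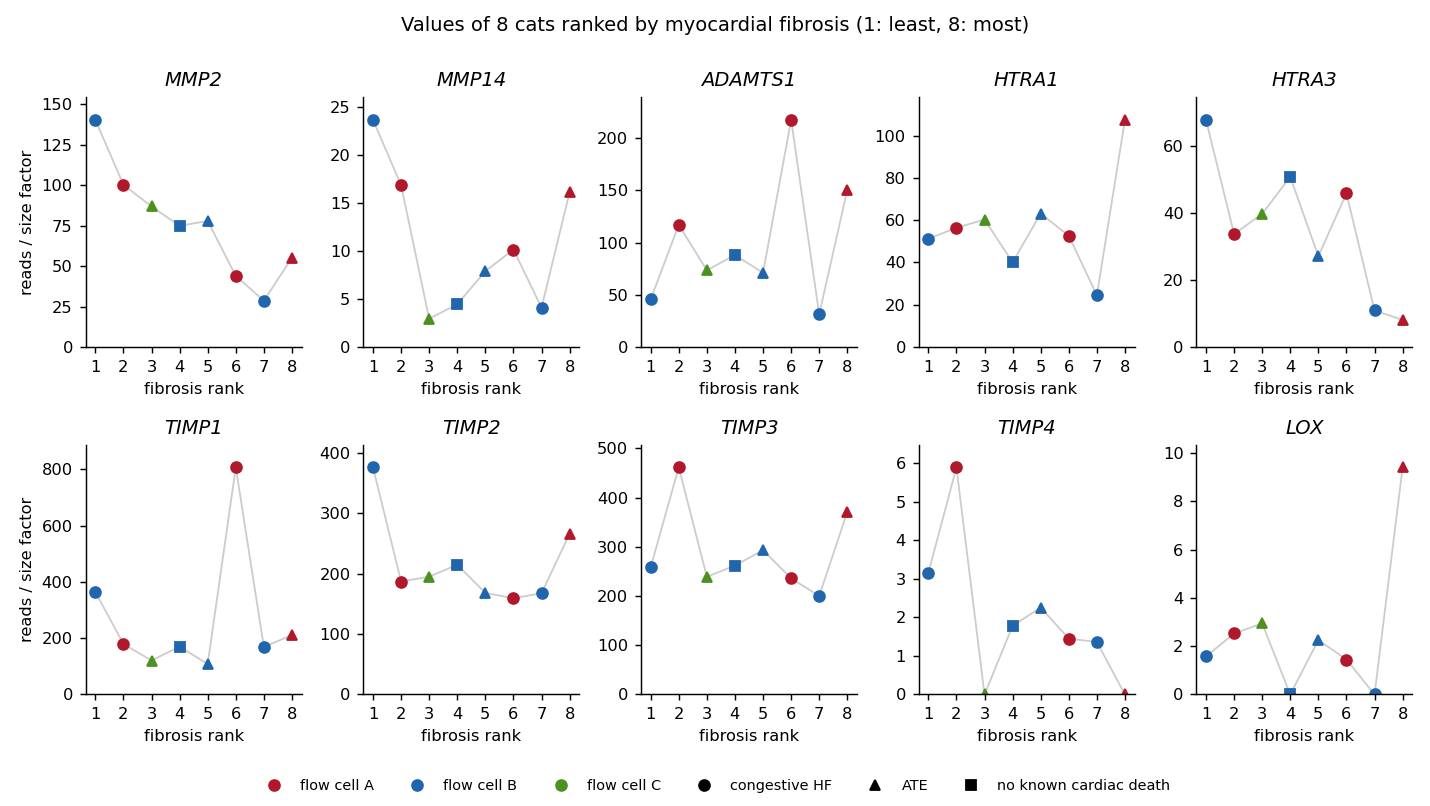
Normalised reads of the 10 genes, with the vertical axis of each panel starting at 0, in the 8 cats ranked by myocardial fibrosis from 1 (least, cat 35) to 8 (most, cat 23), with flow cell as colour and outcome as symbol; the grey line joins neighbours in rank. MMP2 goes from 140.2 to 55.1 with its lowest value of 28.6 at rank 7, and HTRA3 from 67.7 to 8.06, while TIMP1 peaks at rank 6 (cat 11).

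The members did not move as a block across the 12 libraries. Of the 28 pairs of tested members, MMP14 and TIMP1 had the highest Pearson r of log2(value + 1), 0.61, which came to 0.26 once the mean of each flow cell was subtracted. TIMP1 and ADAMTS1 had 0.56, and 0.20 after centring. MMP14 and TIMP2 went the other way, from 0.37 to 0.81, and MMP2 and HTRA3 had 0.49 and 0.51. Both MMP2 and HTRA3 were chosen for their fall with fibrosis in these cats, so a positive r between them is partly built in. TIMP1 and TIMP3 had -0.32, and -0.71 after centring. These 12 points share flow cells and depth, so the correlations are descriptions.

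The tested genes most like each member over the 12 libraries were mostly not matrix genes. ADAMTS1 was followed by HSP90AA1, a heat shock chaperone (r = 0.957), ITGA6 (0.943) and ARCN1 (0.938). TIMP1 was followed by ACTR2, a subunit of the actin-nucleating complex (0.952), DDX39A (0.934) and SRP19 (0.926). MMP14 was nearest to PSMD2, a proteasome subunit (0.924), SOCS4 (0.903) and ZSWIM8 (0.880), and HTRA1 to SLMAP (0.916), PFDN1 (0.910) and MINK1 (0.900). These are the highest correlations over all tested genes and were picked for being high.

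TIMP2 was nearest to RMDN2 (0.900), WDR18 (0.869) and NIPAL3 (0.824), and TIMP3 to FBXW11 (0.891), RASAL2 (0.827) and the giant sarcomere protein gene TTN (0.813). HTRA3 was nearest to PIGN (0.877), ZNF322 (0.843) and CNOT6 (0.823). MMP2 was nearest to OSBPL11 (0.832), FAM168A (0.830) and COG8 (0.828). No member was among the 3 nearest genes of another.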

How the data were processed

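RNA from 12 left ventricles was sequenced directly on 3 Nanopore flow cells. The authors called bases with Guppy, kept reads above a quality score of 7, aligned them to the felCat9 build with Minimap2 and assigned them to genes with FeatureCounts. The deposited table holds signal values, in which the reads of a library were divided by its size factor. This was recognised from the values, since 100% of them divide by what a single read is worth without remainder (tolerance 1e-06), and the factors equal median-of-ratios factors to a relative 2.66e-15. The division is not described in the sources used here. limma 3.58.1 with an intensity trend was fitted to log2(value + 1) over all tested genes, two-sided, with Benjamini-Hochberg adjustment at 0.05. Spearman's rho with age was tested by exact permutation. edgeR 4.0.16 and DESeq2 1.42.0 on the recovered whole reads were alternatives, as were other scalings, pseudocounts of 0.5 and 2, other filters, flow cell as a covariate and each library left out. Scripts ran in R 4.3.3 and Python 3.11.15 and were tested on simulated data. Each cat gave 1 library, so p-values measure the spread between cats, counting error included. Counting error decides genes with few reads, and the median tested gene had 27.5 reads per library.

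The members, gene lists and tests were chosen with earlier results of these data known. Besides the members, genes of the wider lists are named, apart from 1 gene that is not reported here, if called or among the 2 smallest unadjusted p-values of a comparison and direction, as are the 3 genes most correlated with each tested member. All 10 members matched a RefSeq gene table of another assembly, from which only names and neighbours were taken. Sequences were not used here.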

Additional observations from a re-analysis of the deposited data

Results flagged for a closer look

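Of 40 sets of member values (10 genes in each flow cell of 4 libraries and in the 6 cats with congestive HF), 3 had a sample far from the others by Dixon's criterion at 95%. For normal values chance alone gives about 1 in 20, and these sets share cats. TIMP1 was at 170.7 normalised reads in cat 29, above the other 3 libraries of flow cell C at 120.2 to 123. TIMP4 was at 5.54 in cat 29, from 5 reads, and at 0 in the other 3, where any value above 0 would be flagged. TIMP3 was at 461 in cat 30, above the other 5 cats with congestive HF at 184 to 258. Cat 29 is a library whose outcome was not used.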

How the results depend on the processing

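The number of members called between flow cells, 1 in the reported test, was 2 with edgeR and with DESeq2 (TIMP1 besides ADAMTS1), 0 for flow cell A against C alone, and between 0 and 3 when each library was left out. It was 0 without cat 11 or cat 31, 2 without cat 23 or cat 30 and 3 without cat 35, when TIMP1 and MMP14 joined. Among the libraries left without cat 35, MMP14 reached the read minimum for testing only on flow cell A, where it is high. Its part in that count is thus a description and not support for a difference. Over all genes the 446 calls fell to 51 without cat 11 and 129 without cat 31, and were 80 on unscaled reads, 829 with DESeq2, 183 against flow cell B alone and 67 against flow cell C alone. Between outcomes and with age, 0 members were called under every alternative run, including limma's slope on age with flow cell as a covariate, which was chosen after seeing the data. The exact tests with age could hardly call a lone gene with so few cats, so their 0 calls do not show stability. Unscaled reads put the median of all tested genes at 0.41 between flow cells, against 0.03 in the reported test, and at 0.21 between outcomes, against 0.00. No paired analysis was possible because the flow cells share no cat and the outcomes no replicate number. The cause of these changes was not tested.

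Small differences changed sign, none of them called. Between flow cells, unscaled reads gave MMP2 0.30, TIMP2 0.22 and HTRA3 0.36, and flow cell C alone gave HTRA3 0.52. Leaving out each library gave -0.30 to 0.091 for MMP2, -0.0026 to 0.44 for TIMP3, -0.10 to 0.50 for HTRA1 and -0.38 to 0.43 for HTRA3. Between outcomes, unscaled reads, edgeR and DESeq2 gave 0.074, 0.016 and 0.015 for MMP2, 0.19, 0.26 and 0.26 for HTRA3, and 0.10, 0.18 and 0.17 for ADAMTS1. Leaving out each cat gave -0.36 to 0.087 for MMP2, -0.021 to 1.04 for MMP14, -0.0033 to 0.33 for TIMP2, -0.67 to 0.45 for HTRA3 and -0.39 to 0.23 for ADAMTS1. With age, rho on unscaled reads was -0.27 for MMP14, -0.083 for TIMP3 and -0.017 for HTRA1, that of MMP14 centred within flow cells was -0.0057, and Pearson's r of TIMP2 was 0.0043. Leaving out each cat gave rho of -0.48 to 0.19 for MMP2, -0.17 to 0.38 for MMP14, -0.33 to 0.048 for TIMP1 and -0.29 to 0.12 for TIMP2.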

Other observations

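The gelatinase MMP9 and the collagenase MMP8, both known from neutrophils, were singled out after their values were seen. MMP9 was below the limit for testing, and MMP8 was called in no comparison. MMP9 had 23 reads over the 12 libraries, of which 19 were in cat 35, and 0 on flow cell A. MMP8 had 72 reads, of which 31 were in cat 35. The neutrophil and monocyte gene S100A8 had 447 normalised reads in cat 35, against 5.15 to 125 in the other 11 libraries, and cat 35 was the highest library for 7 of the 9 leukocyte markers with reads. The other 2 were the macrophage genes CD68, at 29.2 in cat 35 and 43.9 in cat 11, and CSF1R, at 52.0 in cat 35 and 67.8 in cat 31. Cat 35 also had the highest values of MMP2, MMP14, TIMP2 and HTRA3 and the least myocardial fibrosis of the 8 cats measured. MMP2 and HTRA3 were chosen for their fall with fibrosis, so their high values in this cat are partly built in. A link between leukocytes, these genes and fibrosis was not tested.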
